A study of Arabidopsis thaliana with 6 samples.

Results

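The 10 genes described here encode the enzymes that activate sulfate and reduce it to sulfide in Arabidopsis thaliana: the ATP sulfurylases ATPS1 to ATPS4, the APS reductases APR1 to APR3, the sulfite reductase SIR and the APS kinases APK1 and APK2. They were chosen with earlier results of these data known and taken by gene identifier from 36917 genes counted by RNA-seq. All 10 passed the filter on low counts that left 16584 genes for testing. The libraries came from 3-week-old plants in the Col-0 background, 3 from the wild type (replicates 2, 3 and 4) and 3 from fbn6-1 (replicates 1, 2 and 3), a single insertion line, GK_159E10, in the gene for the plastid protein FIBRILLIN6. Both genotypes grew on fertilised potting soil in long days of 16 h light and 8 h dark under light of about 120 µmol photons m-2 s-1, and no sulfur, cadmium or stress treatment is named for either. The question put to these libraries was which transcripts differ when FBN6 is disrupted.

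Library totals ran from 8668956 to 12287197 counts, of which plastid and mitochondrial genes took 59.7% to 62.5%. FBN6 (AT5G19940) was at 193, 187 and 193 CPM (the count scaled to the library's size after TMM normalisation) in wild-type replicates 2, 3 and 4 and at 0.526, 0.319 and 0.341 CPM in fbn6-1 replicates 1, 2 and 3, as the labels require. The tissue label names only plants. The 3 leaf markers (RBCS1A, LHCB1.3 and RCA) summed to 19051 to 19616 CPM in wild type and 16254 to 17188 CPM in fbn6-1, and none of them was called. The 5 root markers summed to 0.210 to 0.264 CPM in wild type and 0.682 to 1.06 CPM in fbn6-1. PYK10 was higher in every fbn6-1 library, with 13, 10 and 6 counts in replicates 1, 2 and 3. In wild-type replicates 2, 3 and 4 it had 0, 2 and 1. The other root markers had at most 1 count in any fbn6-1 library and at most 2 in any wild-type library. The leaf and root sums separate the genotypes, the root sum through PYK10 alone. The part of these sums in the differences below was not tested. The 5 flower markers summed to at most 1.99 CPM and the 3 seed markers to at most 0.176 CPM. One marker each of root (TIP2;3), flower (AP3) and seed (CRU2) was at 0 counts in all libraries. Whether a replicate was 1 plant or a pool is not said in the labels, so the p-values reflect only the spread among these libraries, which may be technical. In such bulk RNA, less transcript per cell and fewer cells expressing a gene cannot be told apart.

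Sulfate is chemically inert until ATP sulfurylase couples it to ATP, which makes adenosine 5′-phosphosulfate (APS). APS stands at a branch point. APS reductase, a plastid enzyme that draws electrons from glutathione, turns it into sulfite, and ferredoxin-dependent sulfite reductase turns sulfite into the sulfide that enters cysteine. APS kinase instead adds a phosphate and makes PAPS, the donor of sulfate groups for glucosinolates and other sulfated compounds. APS reductase is regarded as the main control point of the pathway. Its transcripts are known to rise when sulfur is scarce and to fall when reduced sulfur is plentiful.

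Transcripts of 8 of the 10 genes were lower in fbn6-1 and those of 0 were higher (edgeR quasi-likelihood test, adjusted p under 0.05 over all tested genes). DESeq2 gave the same 8 lower and 0 higher, and the same 8 genes had an unadjusted edgeR p under 0.05, as did 17.8% of all tested genes. Over all 16584 genes, 2.34% were called lower, 1.48% higher and 3.82% in either direction. The median log2 fold change of the 10 genes was -0.94, beside -0.0037 over all tested genes. Because the 10 genes were chosen with earlier results of these data known, these contrasts with all tested genes are a description only. The genes that fell were all 3 APS reductases, both APS kinases, SIR, ATPS1 and ATPS3; ATPS2 and ATPS4 were not called. In the same 8 genes every fbn6-1 library lay below every wild-type library, an arrangement found in 12.1% of all tested genes, with the opposite arrangement in 10.9%. Among the 8, APR1 and APR3 fell farthest, APR2, ATPS3 and the APS kinases fell by about 1 log2 unit, and ATPS1 and SIR fell by less than 0.5.

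**Figure D1:**
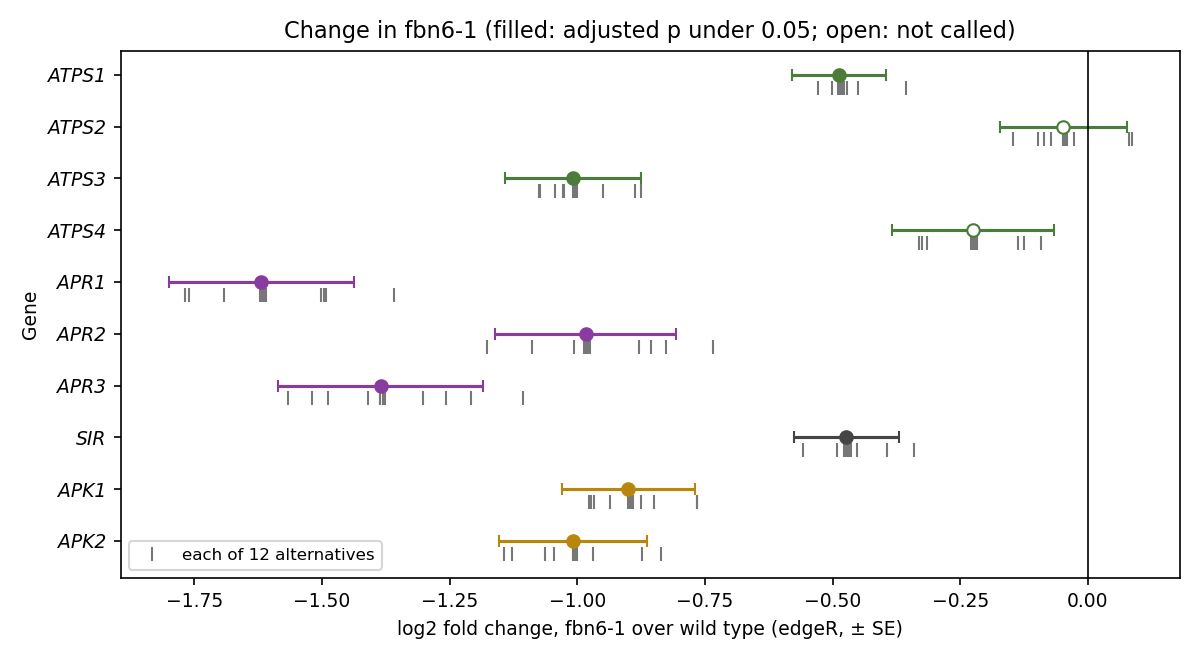
Log2 fold change of each gene, fbn6-1 over wild type, with its standard error; filled points were called at an adjusted p under 0.05, and the grey ticks are the same gene's values under the 12 alternative analyses. APR1 lies farthest from 0 at -1.62, and the ticks of ATPS2 alone fall on both sides of 0.

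ATP sulfurylase catalyses the entry step, and 2 of its 4 genes fell. ATPS1 (AT3G22890, chromosome 3) is the most abundant copy. It was measured at 289, 295 and 299 CPM in wild-type replicates 2, 3 and 4 and at 208, 222 and 200 CPM in fbn6-1 replicates 1, 2 and 3. The groups did not overlap, and the wild-type libraries lay close together. The gene fell by 0.49 on the log2 scale (SE 0.09, adjusted p = 0.00908, edgeR), a 1.40-fold difference. This call was lost without fbn6-1 replicate 1 (adjusted p = 0.0672) and without fbn6-1 replicate 3 (adjusted p = 0.0504), and also with library-size scaling (log2 fold change -0.36, adjusted p = 0.0656) and with the replicate number as a block (adjusted p = 0.251).

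ATPS3 (AT4G14680, chromosome 4) fell about as far as the APS kinases. Its levels were 28.1, 27.3 and 31.0 CPM in wild type and 15.5, 15.6 and 11.7 CPM in fbn6-1, with a wide gap between the groups. The log2 fold change was -1.01 (SE 0.13, adjusted p = 0.000673). ATPS2 (AT1G19920, chromosome 1), the copy known to give rise also to a cytosolic form of the enzyme, stood at 42.1, 39.4 and 41.0 CPM in wild type and 41.4, 44.8 and 32.1 CPM in fbn6-1. These groups overlapped, and the log2 fold change of -0.05 (SE 0.12, adjusted p = 0.889) took the opposite sign with library-size scaling and without fbn6-1 replicate 3. ATPS4 (AT5G43780, chromosome 5), the scarcest of the 10 genes, had 11.9, 13.7 and 10.4 CPM in wild type and 10.2, 11.5 and 8.86 CPM in fbn6-1. Its groups overlapped as well (log2 fold change -0.23, SE 0.16, adjusted p = 0.504). The miss of the threshold by ATPS2 and ATPS4 does not show that they were unchanged.

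In Arabidopsis, transcripts of ATPS1, ATPS3 and ATPS4 and of the sulfate transporter gene SULTR2;1 are known to be cut by the microRNA miR395, which accumulates in sulfur-starved plants; ATPS2 is not among its targets. The sequences are shown because the site divides the ATP sulfurylase copies, with called and uncalled genes among those that carry it. RefSeq's TAIR10.1 annotation places 6 mature miR395 copies on chromosome 1, and they fall into only 2 sequences that share their seed (bases 2 to 8, in capitals, written as DNA):
miR395a, d and e: cTGAAGTGtttgggggaactc
miR395b, c and f: cTGAAGTGtttggggggactc
The stretch of each transcript with the best match to either form lay in the coding part of all 5 genes. Each is written 5′ to 3′ on the gene's strand, with capitals marking the bases that form Watson-Crick pairs with miR395a:
ATPS1 at chr3:8113164-8113184, plus strand: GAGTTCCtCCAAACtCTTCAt
ATPS3 at chr4:8414958-8414978, minus strand: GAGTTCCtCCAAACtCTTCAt
ATPS4 at chr5:17591121-17591141, minus strand: GAGTTCCtCCAAACACTTCAt
SULTR2;1 at chr5:3193268-3193288, plus strand: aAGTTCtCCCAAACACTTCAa
ATPS2 at chr1:6915836-6915856, minus strand: GctcTCtCCtAAACAgcTtAG

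ATPS1 and ATPS3 carried the same 21-base site, with 18 paired bases and 1 G:U pair. Their log2 fold changes were -0.49 and -1.01. ATPS4 had the closest match, 19 of 21 paired bases, and was not called. In ATPS2 the best stretch paired at 13 bases with 5 unpaired. SULTR2;1, which moves sulfate through the vascular tissue, was not called either, at 52.1 ± 5.90 CPM in wild type and 48.7 ± 1.73 CPM in fbn6-1 (SD, n = 3 each; log2 fold change -0.10, SE 0.11, adjusted p = 0.711). The miR395 precursors and mature small RNAs were not analysed here, and a match is a description of the letters only.

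APS reductase takes APS into the reductive branch, and its 3 genes all fell. APR1 (AT4G04610, chromosome 4) was at 74.4, 64.2 and 110 CPM in wild-type replicates 2, 3 and 4 and at 31.7, 26.8 and 22.2 CPM in fbn6-1 replicates 1, 2 and 3. Even the lowest wild-type library was above the highest fbn6-1 library by more than 2-fold. The log2 fold change was -1.62 (SE 0.18, adjusted p = 0.000155, edgeR), or 3.07-fold. APR3 (AT4G21990, chromosome 4) followed the same order of libraries, with 45.9, 42.8 and 72.3 CPM in wild type and 25.0, 21.3 and 15.0 CPM in fbn6-1. It fell by 1.39 on the log2 scale (SE 0.20, adjusted p = 0.00146).

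APR2 (AT1G62180, chromosome 1), which supplies most APS reductase activity in Arabidopsis leaves and underlies natural variation in shoot sulfate, was the most abundant of the 3. Its levels were 157, 115 and 213 CPM in wild type and 93.2, 82.3 and 70.2 CPM in fbn6-1. The gap between the groups was narrower here than for APR1, from 93.2 to 115 CPM. The log2 fold change was -0.98 (SE 0.18, adjusted p = 0.00634), and the call was lost without fbn6-1 replicate 3 (adjusted p = 0.0588). The long noncoding gene AT1G08477 lies wholly within APR2 on the opposite strand (782 bp). It held 40.9% to 48.7% as many counts as APR2 in the 6 libraries. AT1G08477 was lower too, at 77.5 ± 25.5 CPM in wild type and 36.7 ± 7.43 CPM in fbn6-1 (edgeR adjusted p = 0.00832, log2 fold change -1.08, SE 0.20). This call was lost without fbn6-1 replicate 2 (adjusted p = 0.0503) or 3 (0.0662). Whether counting used strand is not stated, so it is not known whether reads of this pair were counted apart.

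Sulfite reductase has 1 gene in Arabidopsis, and SIR (AT5G04590, chromosome 5) fell with a log2 fold change closer to 0 than those of the APS reductases upstream of it, a difference that was not tested. It was at 314, 298 and 304 CPM in wild type and at 218, 245 and 196 CPM in fbn6-1. The groups were separated by 245 against 298 CPM. The log2 fold change was -0.47 (SE 0.10, adjusted p = 0.0197), a 1.39-fold difference. The SIR call was the least firm of the 8: it was lost without wild-type replicate 2 or 4 (adjusted p = 0.0665 and 0.0643), without fbn6-1 replicate 1 or 3 (adjusted p = 0.109 and 0.0954), with library-size scaling (adjusted p = 0.0979) and with the replicate block (adjusted p = 0.249).

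APS kinase draws APS into sulfation, and its more abundant plastid copies, APK1 and APK2, both fell. APK1 (AT2G14750, chromosome 2) was at 62.1, 53.5 and 64.1 CPM in wild type and 35.2, 35.1 and 25.8 CPM in fbn6-1 (log2 fold change -0.90, SE 0.13, adjusted p = 0.00142). APK2 (AT4G39940, chromosome 4) was at 48.9, 51.4 and 46.3 CPM in wild type and 25.9, 28.7 and 17.9 CPM in fbn6-1 (log2 fold change -1.01, SE 0.14, adjusted p = 0.00138). Neither gene's groups overlapped, and both were called under all 12 alternatives, as were ATPS3, APR1 and APR3. The minor copies outside the 10 genes, APK3 (cytosolic) and APK4 (plastid), were at 2.39 ± 0.0186 and 1.99 ± 1.08 CPM in wild type and were not called (log2 fold change 0.54, SE 0.23, and -0.66, SE 0.42).

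**Figure D2:**
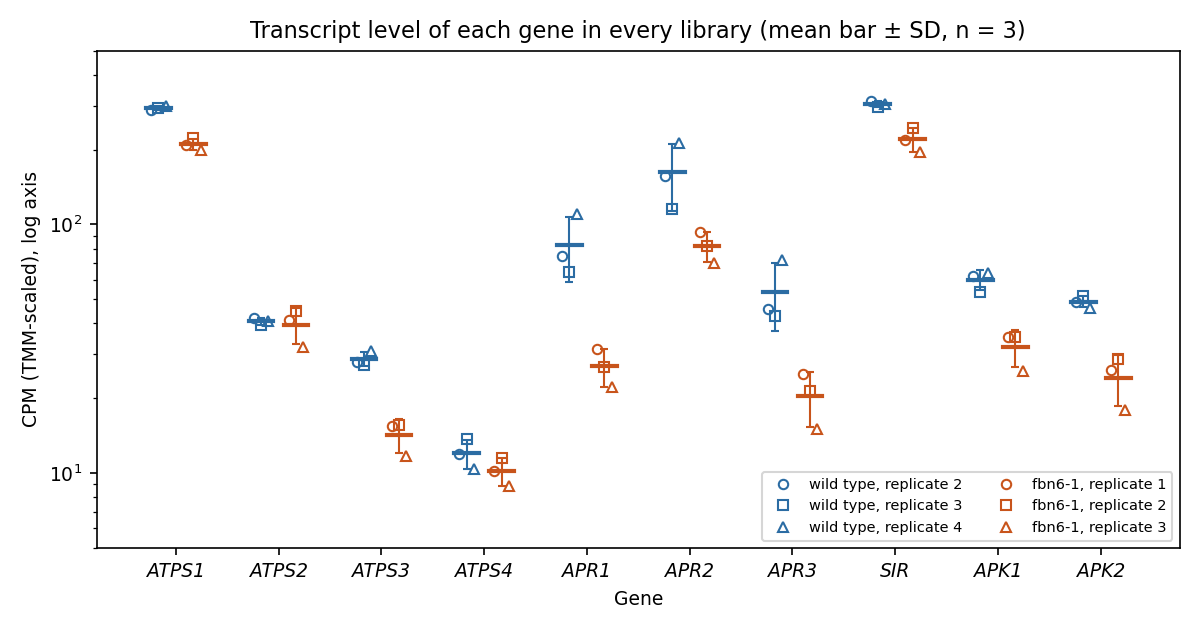
CPM of the 10 genes on a log axis, 1 point per library, with the mean as a bar and the SD as whiskers (n = 3 per genotype; blue wild type, orange fbn6-1). Orange points sit wholly below blue ones except in ATPS2 and ATPS4, and the wild-type spread is widest in the 3 APR genes.

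Copies of 1 enzyme were compared within libraries, where scaling plays no part. For each of 10 pairs of copies the log2 ratio of their counts was compared between the genotypes with a two-sided exact permutation test; with 3 libraries against 3 the smallest possible p is 0.1, which becomes 0.143 after adjustment over the 10 pairs, so none can pass 0.05. In 7 pairs the ratios of the groups did not overlap. The pairs share genes and are not independent, and how often ratios of other gene pairs separate was not computed. The count of pairs is therefore a description only. The ratio of APR1 to APR2 was lower in fbn6-1 by 0.65 on the log2 scale (SE 0.07, exact p = 0.1), with -1.08, -0.84 and -0.96 in wild type and -1.56, -1.62 and -1.66 in fbn6-1. The ratio of APR2 to APR3 was higher by 0.43 (SE 0.14, exact p = 0.1).

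Among the ATP sulfurylases the largest such difference was that of ATPS2 over ATPS3, 0.96 higher in fbn6-1 (SE 0.06, exact p = 0.1), and ATPS1 over ATPS3, the pair with the same miR395 site, was 0.53 higher (SE 0.11, exact p = 0.1). For APK1 over APK2 the difference was 0.13 (SE 0.14, exact p = 0.6), within the spread of the libraries. Coding sequences of paired copies were 64.7% to 81.8% identical, and of all windows of 50 coding bases only 1, in ATPS1 against ATPS3, occurred in another copy of the same family.

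As a share of their family's counts, APR2 made up 54.2% ± 2.41 in wild type and 63.6% ± 1.66 in fbn6-1 (SD, n = 3 each), and APR1 27.8% ± 1.04 and 20.8% ± 0.313, both without overlap. APR3 made up 18.0% ± 1.37 and 15.7% ± 1.48, with overlapping libraries. Whether the APR2 counts hold reads of AT1G08477 is not known. That limit holds for the APR shares, for the pair ratios with APR2 and for the APR sum and its ratios. Opposite-strand genes also overlap ATPS2 (AT1G19910, 117 bp), APR3 (AT4G21980, 27 bp) and APR1 (AT4G04614, 21 bp). They held 71.2% to 98.6%, 4.38% to 34.1% and 2.64% to 15.9% as many counts as these genes. Those overlapping ATPS3 and ATPS4 held at most 0.877% and 3.70%. For these pairs too it is not known whether reads were counted apart. In the ATP sulfurylase family ATPS1 held the greater part, 78.3% ± 0.379 and 76.8% ± 2.07. ATPS2 held 10.9% ± 0.439 and 14.3% ± 1.41 and ATPS3 7.66% ± 0.440 and 5.19% ± 0.509, both without overlap, while ATPS4 was between 2.72% and 3.91% in all libraries. APK1 held 55.0% ± 3.60 and 57.2% ± 2.01 of the counts of APK1 and APK2 together. APK3 and APK4 were left out of the APK shares, sum and ratios. The shares of APR1, APR2, ATPS2 and ATPS3 reached the smallest exact p of 0.1 (0.225 adjusted over 9 shares).

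**Figure D3:**
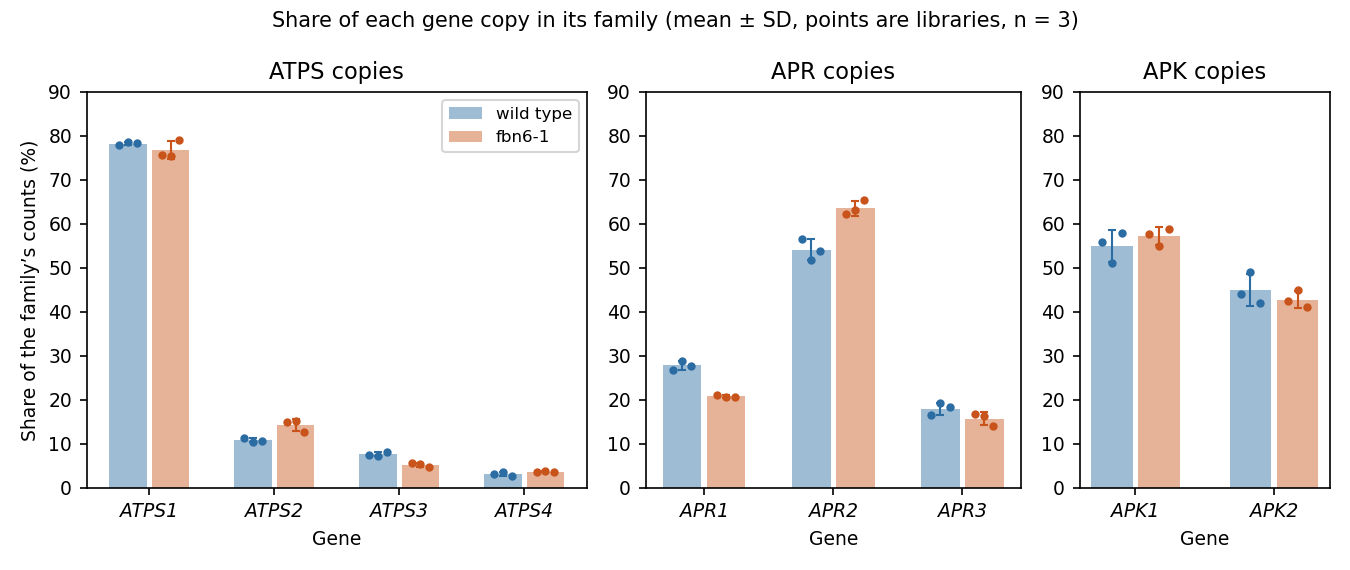
Share of each copy in its family's counts, in percent, as mean bars with SD and 1 point per library (n = 3 per genotype). The APK shares are of APK1 and APK2 only. The APR2 points of fbn6-1, from 62.2% to 65.4%, lie above those of wild type, from 51.9% to 56.7%, and the APR1 points lie the other way round.

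Summed over the copies among the 10 genes, each enzymatic step had less transcript in fbn6-1. The APR genes together were at 278, 222 and 395 CPM in wild-type replicates 2, 3 and 4 and at 150, 130 and 107 CPM in fbn6-1 replicates 1, 2 and 3. On the log2 scale this sum was lower by 1.18, or 44.1% of wild type. The sum of APK1 and APK2 was lower by 0.97 (51.0% of wild type), from 109 ± 3.37 to 56.2 ± 10.9 CPM. The ATPS sum was lower by 0.46 (72.7%), from 376 ± 5.12 to 274 ± 20.5 CPM, and SIR as a step by itself stood at 71.8%. Each of these comparisons gave the smallest possible exact p of 0.1, which here says only that the libraries did not overlap. Among single tested genes, 12.1% lay wholly lower in fbn6-1 and 10.9% wholly higher. The sums hold the counts of the genes called above, so they are not separate evidence.

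The balance of the APS branch point was compared through ratios chosen after the values were seen. Counts of APR per count of APK were 2.50, 2.12 and 3.58 in wild type and 2.45, 2.04 and 2.45 in fbn6-1. The groups overlapped (log2 difference -0.21, exact p = 0.4, where 0.1 is the smallest possible). Both branches were lower relative to ATP sulfurylase: APR over ATPS was 0.792 ± 0.225 in wild type and 0.471 ± 0.0643 in fbn6-1, and APK over ATPS 0.289 ± 0.00997 and 0.204 ± 0.0271, each with an exact p of 0.1 and no overlap.

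Levels of different genes can be compared only per length, here as CPM per kilobase of exon in the RefSeq annotation. In wild type ATPS1 was highest at 155 ± 2.63, followed by SIR at 91.9 ± 2.55, APR2 at 79.0 ± 23.9, APR1 at 42.8 ± 12.4, APK1 at 36.9 ± 3.46, APK2 at 34.9 ± 1.81, APR3 at 29.4 ± 8.87, ATPS2 at 21.3 ± 0.714, ATPS3 at 14.3 ± 0.975 and ATPS4 at 6.30 ± 0.863. The order was clear at both ends, where ATPS1 and SIR, and then APR3, ATPS2, ATPS3 and ATPS4, were separated by more than their ranges. Neighbours from SIR down to APR3 overlapped in the range of their libraries. In fbn6-1 the level per kilobase of APR1 was 13.9 ± 2.46, which put it in place 7 against place 4 in wild type, and ATPS2 at 20.6 ± 3.43 was in place 4 against place 8. The fbn6-1 libraries of ATPS2 and APK1 overlapped, and by coding length APK1 was in place 4 and ATPS2 in place 5.

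The APR genes had the widest spread among wild-type libraries. Their coefficients of variation among wild-type libraries were 28.9% to 30.3%, against 1.70% to 13.7% for the other 7 genes. Wild-type replicate 4 was highest for APR1, APR2 and APR3, with ATPS1, ATPS3 and APK1, and it was the highest wild-type library in 31.9% of all tested genes. In fbn6-1, replicate 3 was the lowest library for all 10 genes, where it was lowest in 35.8% of all tested genes. Without that library 5 of the 10 genes were called (ATPS3, APR1, APR3, APK1 and APK2), with log2 fold changes from -1.50 for APR1 to -0.77 for APK1. Expression of APS reductase is known to follow light and time of day, and no harvest time is given. Of 10 clock genes, 8 were tested and edgeR called 0 at an adjusted p under 0.05, as did DESeq2 and the other alternatives. LHY, ELF3 and LUX, 3 of the 8, had an unadjusted p under 0.05, a level reached by 17.8% of all tested genes. The log2 fold changes of ELF3 and LUX were 0.64 (SE 0.28) and -0.65 (SE 0.30), with overlapping groups. CCA1 and LHY, which peak around dawn, were at 123 ± 7.41 and 96.7 ± 6.21 CPM in wild type and at 107 ± 1.81 and 78.5 ± 3.08 CPM in fbn6-1 (log2 fold change -0.20, SE 0.09, and -0.30, SE 0.10) without overlap. Their part in the APR difference was not tested.

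**Figure D4:**
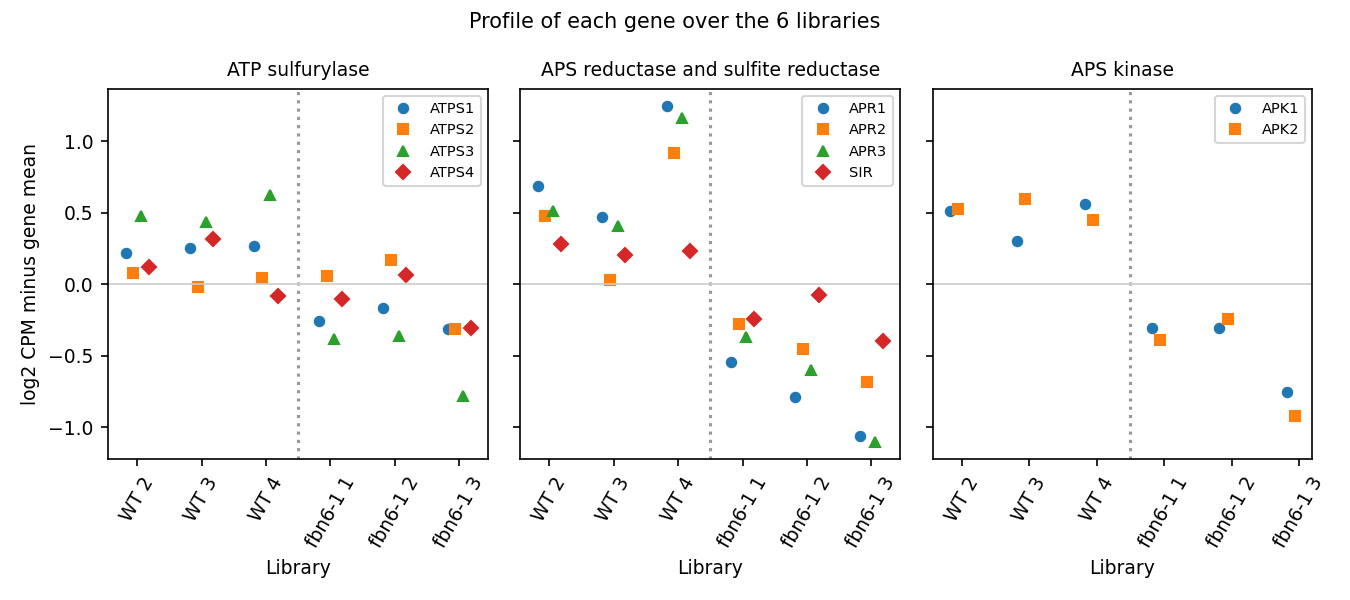
Log2 CPM of each gene minus its own mean over the 6 libraries, by enzyme; the dotted line parts wild type (WT) from fbn6-1. The APR genes show the widest range, from wild-type replicate 4 at the top to fbn6-1 replicate 3 at the bottom, while ATPS2 and ATPS4 have libraries of each genotype on both sides of 0.

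Genes with the most similar profile were ranked by the root mean square difference, over the 6 libraries, between their centred log2 CPM and the mean centred profile of APR1, APR2 and APR3. Since both genotypes enter it, the measure favours genes called lower. The nearest gene outside the 10 was AT1G08477, the transcript antisense to APR2 (0.155 log2 units). Whether its reads were counted apart from those of APR2 is not known. Next came AT5G54145 (0.162) and AT1G10657 (0.185), which the annotation leaves unnamed, then SHM7 (0.205), a serine hydroxymethyltransferase gene known to respond to sulfur starvation, and BMY3 (0.205), a beta-amylase family gene. SHM7 had 93.9, 81.5 and 111 CPM in wild type and 34.0, 38.1 and 25.1 CPM in fbn6-1. Of the 7 genes that do not make up the profile, ATPS3 was nearest to it (0.243), ahead of APK1 (0.272) and APK2 (0.332), and ATPS2 was farthest (0.668).

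Other genes of sulfur metabolism were read from lists by role, chosen with earlier results of these data known. Over all tested genes, 2.34% were called lower and 1.48% higher. Of 9 genes for PAPS use and sulfation 2 fell: the sulfotransferase genes SOT17 (log2 fold change -1.07, SE 0.16, adjusted p = 0.00218) and SOT18 (-0.62, SE 0.16, adjusted p = 0.0420), which put the sulfate group of PAPS onto desulfoglucosinolates. Of 9 genes for other uses of sulfite, siroheme synthesis, ferredoxins and ferredoxin-NADP reductases 1 fell, the ferredoxin-NADP reductase gene FNR1 (-0.42). UPM1, which starts synthesis of the siroheme cofactor of SIR, was not called, at 76.3 ± 6.31 CPM in wild type and 88.4 ± 5.49 CPM in fbn6-1. Of 12 sulfate transporter genes 8 were tested and 2 fell, SULTR4;2 of the vacuole membrane (-1.10, SE 0.22, adjusted p = 0.0127) and SULTR2;2 (-0.68, SE 0.17, adjusted p = 0.0451). Of 10 genes for cysteine and glutathione synthesis 1 fell, the serine acetyltransferase gene SERAT3;2 (-1.42, SE 0.30, adjusted p = 0.0169). Among the genes named from these lists, SOT17 was called under all 12 alternatives. The calls of SERAT3;2 and SULTR4;2 were each lost under 5, that of FNR1 under 6, that of SULTR2;2 under 7 and that of SOT18 under 8, in each case including the replicate block and the removal of fbn6-1 replicate 1.

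Of 9 sulfur starvation genes 6 passed the low-count filter and 5 fell, with a median log2 fold change of -1.73, the lowest of the lists; SHM7 (-1.56), SDI1 (-2.77) and LSU2 (-2.37) had the smallest adjusted p and were called under all 12 alternatives. The transcription factor gene SLIM1, whose protein acts on sulfate transporter genes in sulfur starvation, stood at 10.8 ± 0.731 and 10.9 ± 0.697 CPM (log2 fold change 0.01, SE 0.14, adjusted p = 0.978). Of 7 tested regulator genes MYB29 fell (-0.80, adjusted p = 0.0487) and MYB34 rose (0.63, adjusted p = 0.0461); both encode glucosinolate regulators, and members of that family are known to activate genes of sulfate assimilation. Each of these calls was lost under 7 of the 12 alternatives, among them DESeq2 (adjusted p = 0.0526 for MYB29 and 0.0842 for MYB34), the replicate block (0.0884 and 0.398) and the removal of any 1 fbn6-1 library. The medians of the other lists were -0.36 for PAPS use, -0.11 for sulfite use, -0.63 for transporters, -0.28 for cysteine and glutathione and -0.045 for regulators.

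The letters of 2 short motifs were looked for in the 300 bases around each gene's annotated start, 250 before it and 50 after. They were GAGAC, the core of a sulfur-responsive element known from an Arabidopsis sulfate transporter promoter, on both strands, and the palindrome CACGTG, a G-box of the kind that HY5 binds; HY5 is known to act on APR1 and APR2. Neither occurred in any of the 10 windows, while 32.8% and 7.68% of 27443 protein-coding genes held them. This says only that these letters are not in these windows.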

How the data were processed

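RNA-seq libraries of 3 wild-type and 3 fbn6-1 samples were grouped by their sample titles. The authors deposited raw counts per gene; per the submitters' processing notes they used Trimmomatic, FastQC, TopHat2 2.1.1 and featureCounts with TAIR10. Not given in the sources used here are the settings, annotation release, strand use and treatment of reads with several matches.

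The tests used edgeR 4.0.16 and R 4.3.3 (quasi-likelihood, two-sided, TMM, filterByExpr with minimum count 10 and minimum total 15), with Benjamini-Hochberg adjustment over 16584 genes; the SE is the log2 fold change divided by the square root of its F statistic. The common coefficient of biological variation was 0.124. Family sums, shares and ratios (0.5 added to counts for the ratios of pairs) were compared by exact permutation in scipy 1.17.1. Profiles used a prior count of 2.

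Alternatives were RLE factors, library-size scaling, DESeq2 1.42.0, no low-count filter, removal of organelle genes, a replicate block, and each library left out. The edgeR test was tested on simulated data with known changes. The 10 genes and all lists were chosen with earlier results of these data known. Every one of the 10 genes is named. Of each list up to 3 called genes per direction are named, by smallest adjusted p, and also the 5 nearest profiles. UPM1, SLIM1, APK3, APK4, CCA1, LHY, ELF3, LUX, PYK10, AT1G19910, AT4G21980 and AT4G04614 were named after their values were seen. Sequences, lengths and positions are from the RefSeq genome and annotation of TAIR10.1, matched by locus identifier (10 of 10).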

Additional observations from a re-analysis of the deposited data

How the results depend on the processing

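APR1, APR3, ATPS3, APK1 and APK2 were called lower under all 12 alternatives; the calls of ATPS1, APR2 and SIR were lost as given with their values above. Called members numbered 5 to 8 with 1 library left out, 5 of them without fbn6-1 replicate 3; 0 were higher. The ATPS2 log2 fold change took the opposite sign with library-size scaling (0.0856) and without fbn6-1 replicate 3, with a range of -0.146 to 0.0804 when 1 library was left out; ATPS2 was never called. Library-size scaling moved the median of all tested genes to 0.13 on the log2 scale, and the APR1 log2 fold change then was -1.49.

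Lower and higher calls over all genes numbered 195 and 508 with library-size scaling, 727 and 505 without a filter, and 171 to 775 and 84 to 463 with 1 library left out. List counts were small and moved with the setting. Library-size scaling called 1 PAPS gene, 0 sulfite genes, 1 transporter and 0 regulators lower. Without a filter 2 sulfite genes and 5 transporters were lower, and 2 sulfite genes without organelle genes. DESeq2 called 1 PAPS and 2 sulfite genes lower and 0 regulators lower or higher. With 1 library left out, lower calls were 1 to 3 (PAPS), 0 to 1 (sulfite), 0 to 4 (transporters), 0 to 2 (cysteine and glutathione), 3 to 5 (starvation) and 0 to 1 (regulators), and higher regulators 0 to 1. The causes were not tested.

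Replicate numbers 2 and 3 occur in both genotypes; no source says that they mark a shared batch, and deviations of same-numbered libraries correlated at -0.035 and 0.098. With the number as a replicate block, in which wild-type replicate 4 and fbn6-1 replicate 1 have no partner and do not enter the contrast, 118 genes were lower and 73 higher, 6 of the 10 members were lower, and the lists held 1 PAPS, 0 sulfite, 1 transporter, 0 cysteine and glutathione, 3 starvation and 0 regulator genes lower and 0 regulators higher. Coding length in place of exonic length exchanged places 4 and 5 between APR1 and APK1 in wild type and between ATPS2 and APK1 in fbn6-1.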
